A study of Ovis aries with 26 samples.

Results

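Pancreas from 4 cloned CFTR-/- sheep fetuses was compared with pancreas from 3 wild-type (WT) fetuses at 120 days of gestation by single-cell RNA-seq. The libraries were those titled CF 120 that the study lists as cloned, 5 libraries from 4 fetuses with the 2 libraries of cloned replicate 1 summed, and the 3 libraries titled WT 120. Barcodes counted as cells if they showed over 200 genes, stayed below 6000, and drew less than 25% of their unique molecular identifiers (UMIs, each standing for 1 captured transcript) from genes named MT-. This left 13004 of 17791 barcodes in the cloned fetuses and 8839 of 12023 in WT, together 21843 of the 79510 kept cells of the series, which holds 26 libraries from 23 animals.

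All 4 cloned fetuses were male and were made by somatic cell nuclear transfer from a single fibroblast line, CF2503, in which exon 2 of CFTR had been disrupted on both alleles. The WT fetuses were naturally bred, 2 males and 1 female (WT replicate 2). The CFTR-/- genotype, cloning and the donor line therefore cannot be told apart here, and sex differs in part. Cloned replicates 2 and 3 shared a pregnancy, as did WT replicates 1 and 2, so the fetuses are not fully independent and p-values measure only the spread between these fetuses. The tissue was digested with collagenase or with Liberase and the libraries were made with more than 1 kit version, which the sources do not give library by library.

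CFTR is a chloride and bicarbonate channel of the apical membrane, and in the pancreas it sits mainly in duct cells. Duct cells flush the digestive enzymes that acinar cells release into the gut, islet endocrine cells release hormones into the blood, and mesenchymal, mural, Schwann and endothelial cells surround them. In cystic fibrosis the exocrine pancreas is damaged already before birth, with blocked ducts, loss of acini and scarring.

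Depth was uneven. The median kept cell had 8174 to 12145 UMIs in 4 of the 5 cloned libraries and 9726 to 20309 in WT. Cloned replicate 3 stood apart, with 943 kept cells, a median of 3425 UMIs per cell and 7841217 UMIs in all, so values are listed fetus by fetus and counts of genes are also given without it. Libraries shared at most 10 cell barcodes with each other. No entry named INS is in the files, so insulin cells could not be marked.

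Cells were assigned to a lineage by the averaged, scaled level of marker genes, with cut-offs set after the cells had been seen. The gates came only in part from the study's own cell types. The study describes no intestinal or mesothelial cells. Its type nearest the Schwann gate is activated stellate or injured Schwann cells, and that nearest the mural gate is stellate cells or myofibroblasts. For the former at 120 days it does not count NGFR and S100B, both in the Schwann gate, as markers. The gates held 9085 acinar, 4091 duct, 3128 endocrine, 1402 stromal, 851 mural, 306 Schwann, 1312 endothelial, 212 myeloid, 129 lymphoid, 93 erythroid and 2 mesothelial cells, and 1232 cells were left ungated. No cell passed the gate for intestinal markers, 0 of 21843 cells, which allows a share of up to 0.0137% (counting error only). Unsupervised clusters put 95.5% to 99.8% of the cells of the acinar, duct, endocrine, stromal, mural, Schwann and endothelial gates in a cluster of the same name. The clusters were named by the same marker scores and cut-offs, so this agreement was in part built in. The lymphoid gate was weak: 52 of its 129 cells lay near the cut and no cluster carried that name.

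CFTR itself, the targeted gene, was detected in duct-gated cells of every fetus. Its level there, in TMM-scaled counts per 1000000 UMIs (CPM, summed over the duct-gated cells of a fetus), was 253, 310, 705 and 211 CPM in cloned replicates 1 to 4 and 210, 273 and 186 CPM in WT replicates 1 to 3. The groups overlapped, and the log2 fold change, cloned minus WT, was 0.72 ± 0.44 (SE; edgeR adjusted p = 0.75). In acinar-gated cells, where CFTR was lower, the estimate was 0.43 ± 0.30 (edgeR adjusted p = 0.644). The highest value was that of cloned replicate 3, whose 81 duct-gated cells had a median of 17.4% mitochondrial UMIs, against 4.87% to 7.07% in the duct-gated cells of the other fetuses. The same fetus was also the highest in duct-gated cells for ICAM1, NFKB1, SMAD3 and SCTR, and the part of RNA quality in these values was not tested. These libraries read the 3′ end of transcripts, which lies outside the targeted exon, so the CFTR count does not check the genotype. Of the genes that neighbour CFTR, none of STARD3NL, CTTNBP2, ASZ1, ST7, CAPZA2 and MET passed the test in any lineage in which it was tested. CTTNBP2 lay higher in all cloned fetuses in endocrine (1.04), stromal (0.81) and endothelial cells (1.25 on the log2 scale), and ASZ1 lay lower in all of them in endocrine cells (-1.93).

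Schwann-gated cells, the glial cells of the pancreatic nerves, were a larger share of the kept cells in each cloned fetus than in any WT fetus. They made up 1.36%, 3.62%, 7.21% and 0.720% of kept cells in cloned replicates 1 to 4 and 0.611%, 0.103% and 0.632% in WT replicates 1 to 3. The means were 3.23% ± 2.93 (SD, n = 4) and 0.448% ± 0.3 (SD, n = 3), a ratio of 7.2. The exact two-sided permutation test over fetuses gave p = 0.0571, the smallest that 4 against 3 fetuses allow, and an adjusted p of 0.549 over the 12 classes tested. Without cloned replicate 3 the mean difference was in the same direction, and over all leave-one-out settings it ran from 1.45 to 3.62 percentage points. These shares also depend on how many acinar-gated cells each fetus held. Cloned replicate 4 had 19 Schwann-gated and 823 acinar-gated cells among 2640 kept cells. WT replicate 1 had 16 and 1521 among 2619. Counted over the cells outside the acinar gate, cloned replicate 4 lay below WT replicate 1, so the groups overlapped on that base.

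Acinar-gated cells, the enzyme makers, formed 43.8%, 32.5%, 4.24% and 31.2% of kept cells in the cloned fetuses and 58.1%, 65.7% and 35.7% in WT. The means were 27.9% ± 16.8 (SD, n = 4) and 53.1% ± 15.6 (SD, n = 3), and the ranges overlapped because cloned replicate 1 lay above WT replicate 3 (exact permutation p = 0.114, adjusted p = 0.549). Duct-gated cells formed 14.9%, 16.4%, 8.59% and 41.2% in the cloned fetuses and 16.4%, 11% and 19.8% in WT (exact permutation p = 0.914). Duct-gated cells outnumbered acinar-gated cells in cloned replicates 3 and 4 and in no WT fetus.

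Cloned replicate 3 had an unusual mixture. Endothelial-gated cells were 45.5% of its kept cells, against 3.45% to 6.05% in the other cloned fetuses and 3.34% to 4.42% in WT. Mural-gated cells, the contractile cells around vessels and ducts, were 20.6% of it, against 1.55% to 3.82% and 1.80% to 4.42%. It held no endocrine-gated cell, 0 of 943 cells, which allows a share of up to 0.318%. Endocrine-gated cells otherwise formed 14.7%, 23.7% and 15.7% of the other cloned fetuses and 10.3%, 5.40% and 18.0% of WT, and the shares of endocrine, stromal, mural, endothelial, myeloid, lymphoid, erythroid and dividing cells all overlapped between the groups.

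**Figure D1:**
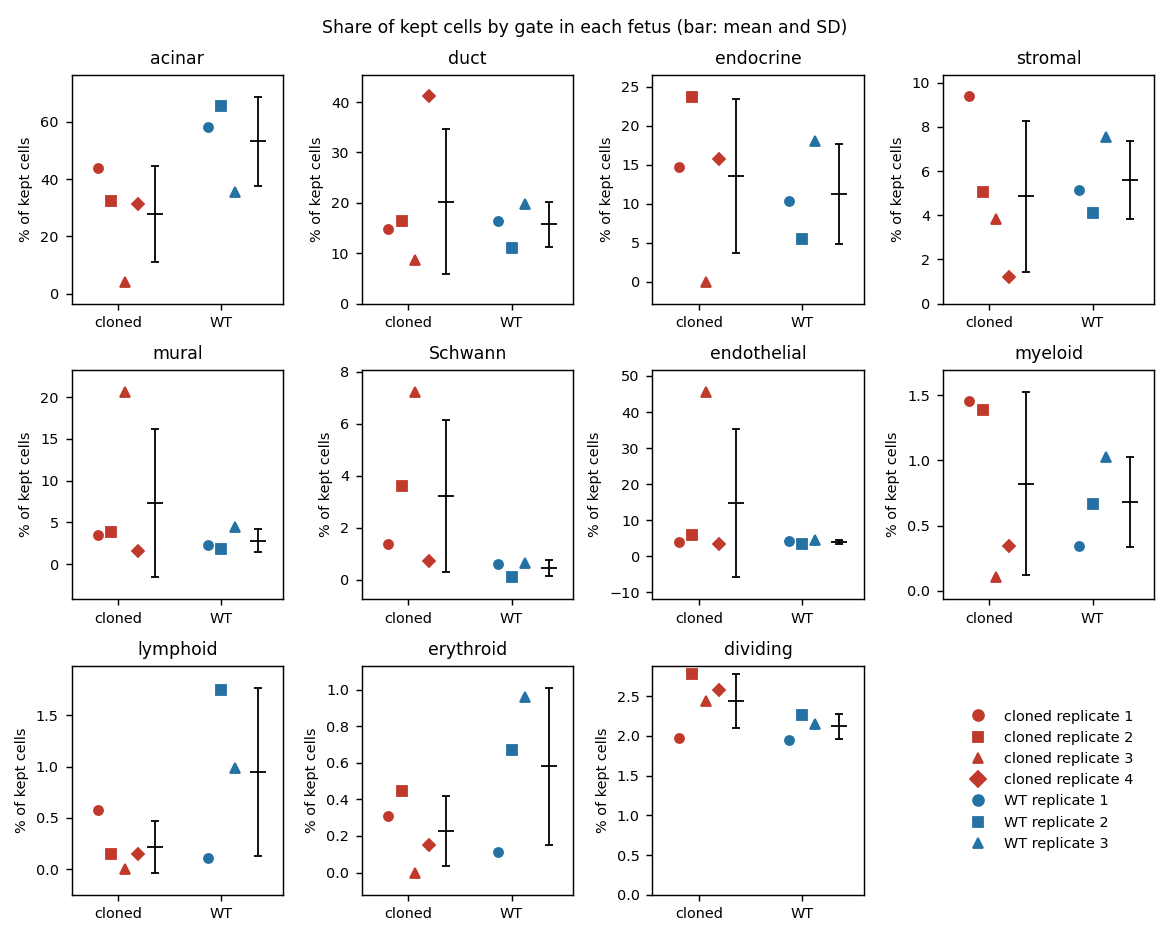
Share of kept cells (%, linear axis) that passed each lineage gate or the dividing-cell gate, 1 point per fetus, with the mean and SD of each group as a bar. The 4 cloned fetuses lie above the 3 WT fetuses for Schwann-gated cells, and cloned replicate 3 (triangle) stands apart for endothelial-gated (45.5%) and mural-gated (20.6%) cells.

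Gene levels were compared within each lineage by summing UMIs per fetus. The test asked which genes differ between cloned CFTR-/- and WT cells of the same kind. Few did. In acinar-gated cells 10 of 13390 tested genes passed an adjusted p of 0.05 (0.0747%), 1 higher (0.00747%) and 9 lower (0.0672%) in the cloned fetuses. The count was 4 of 11905 in duct (0.0336%; 2 higher and 2 lower, 0.0168% each), 10 of 11776 in endocrine (0.0849%; 4 higher, 0.034%, and 6 lower, 0.051%), 1 of 6072 in stromal (0.0165%), 2 of 8210 in endothelial (0.0244%) and 0 of 4682 in mural cells (0%). In mural cells 258 of the 4682 genes had an unadjusted p under 0.05 by edgeR, near the share that chance gives at this threshold. DESeq2 also called 0 in mural cells. The unadjusted counts were 347 of 6072 in stromal, 861 of 11905 in duct and 1054 of 11776 in endocrine cells. They were 784 of 8210 in endothelial and 1359 of 13390 in acinar cells. The shares in duct, endocrine, endothelial and acinar cells lay further above the share that chance gives. The endocrine test had 3 fetuses in each group because cloned replicate 3 had no such cells. Every gene that passed had cloned and WT fetuses that did not overlap in CPM, and each also passed DESeq2 in the same direction. The median log2 fold change over all tested genes lay between -0.0001 and 0.0109 in the 6 lineages, so changes are relative to a centre near 0.

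Leaving out 1 fetus moved these counts. The acinar count was 2 without cloned replicate 1, 2 or 4, 6 without cloned replicate 3 or WT replicate 1, and 159 without WT replicate 3. The endocrine count was 62 without cloned replicate 1, 46 without WT replicate 3 and 5 without WT replicate 1. The duct count was 0 without cloned replicate 1 or 2 or WT replicate 1 or 2, 1 without cloned replicate 3 or 4, and 2 without WT replicate 3. The single stromal gene was lost without WT replicate 2, and 2 stromal genes passed without cloned replicate 1 and 3 without WT replicate 1 or 3. In endothelial cells 7 genes passed without WT replicate 1, 4 without WT replicate 3 and 3 without cloned replicate 1 or 4. In mural cells 2 genes passed without WT replicate 2 and 1 without cloned replicate 1 or WT replicate 3.

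TDGF1 passed the test in acinar- and endocrine-gated cells. The gene encodes Cripto, a membrane-anchored co-receptor for the Nodal ligand of early embryos. No TDGF1 UMI was found in the acinar-gated cells of any of the 4 cloned fetuses, whereas the 3 WT fetuses had 117 to 225 each, 508 in all. The WT levels were 4.4, 5.25 and 3.4 CPM. Against a floor of 3 UMIs over the cloned group, the level was at least 191-fold lower (edgeR adjusted p = 0.00582). This bound is for the group as a whole and not for each fetus. Cloned replicate 1 held 92525321 acinar-gated UMIs and cloned replicate 3 held 1037020. In endocrine-gated cells TDGF1 stood at 0.0776, 0 and 0 CPM in cloned replicates 1, 2 and 4 and at 14.6, 21.3 and 6.51 CPM in WT. That is 1 UMI against 149, a ratio of 214 for WT over cloned with a 95% counting interval of 37.7 to 8491 on unscaled levels (edgeR adjusted p = 0.00206). The groups did not overlap in either lineage. The call for TDGF1 was kept in all 15 alternatives tried in acinar cells and in all 14 tried in endocrine cells. TDGF1 was named after its values were seen, because its level was under the minimum of 20 CPM of the naming rule.

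TDGF1 was then looked up in all 26 libraries of the series, over all kept cells and with no test. The 5 cloned libraries at 120 days held 2 UMIs in all and the 3 WT libraries 204 to 299 each. The pair of naturally bred CFTR-/- fetuses at 120 days held 0, as did the 3 CFTR-/- libraries at 80 days, all cloned. The 5 CFTR-/- libraries at term, naturally bred and cloned, held 4 in all. At 80 days the WT libraries held 137 to 305 and the libraries heterozygous for CFTR 66 to 286. WT lambs at term were mixed, from 0 to 507 UMIs in 4 libraries. TDGF1 was therefore near 0 in each CFTR-/- library, cloned or not, and also in some WT libraries at term.

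**Figure D2:**
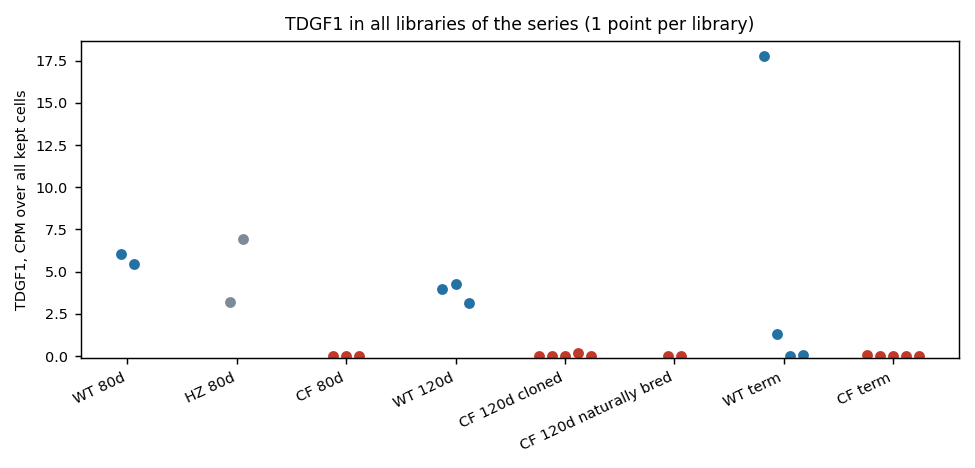
TDGF1 level over all kept cells (unscaled CPM, linear axis) in each library of the series, 1 point per library. Libraries are grouped by genotype (CF for CFTR-/-, HZ for heterozygous) and age. Breeding is split only for the CFTR-/- libraries at 120 days. All CFTR-/- libraries sit at or below 0.199 CPM, the 120-day WT libraries at 3.15 to 4.24 CPM, and WT term libraries spread from 0 to 17.8 CPM.

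Loci without a symbol also fell in the epithelial lineages. LOC101121593 passed the test as lower in acinar, duct and endocrine cells. In acinar-gated cells it stood at 0.285, 0.467, 1.72 and 0.442 CPM in cloned replicates 1 to 4 and 6.22, 11.2 and 6.28 CPM in WT, a log2 fold change of -4.23 ± 0.42 (SE; edgeR adjusted p = 0.00725). In duct-gated cells the log2 fold change of LOC101121593 was -4.15 ± 0.53 (edgeR adjusted p = 0.0464) and in endocrine-gated cells -3.1 ± 0.39 (edgeR adjusted p = 0.0122). The acinar call was kept in 12 of 15 alternatives, the duct call in 6 of 15 and the endocrine call in 13 of 14. Over all kept cells LOC101121593 was at 6.03 to 10.2 CPM in the 120-day WT libraries only among fetal groups. It was at 0.64 to 0.949 CPM in WT at 80 days, similar to the 0.305 to 1.16 CPM of the cloned libraries, and reached 18.8 CPM in a WT lamb at term.

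LOC101119869, which lies between DNAJC13 and ACP3 in the RefSeq annotation of ARS-UI_Ramb_v3.0, was at 0.296, 0.42, 0.573 and 0.281 CPM in the acinar-gated cells of cloned replicates 1 to 4 and 7.78, 6.23 and 4.36 CPM in WT. The groups did not overlap, and the log2 fold change was -4.20 ± 0.32 (SE; edgeR adjusted p = 0.00179). In endocrine-gated cells LOC101119869 fell by 3.1 on the log2 scale (SE 0.31; edgeR adjusted p = 0.00206). Over all kept cells, LOC101119869 was at 0.533 to 0.967 CPM in 4 of the 5 cloned libraries, at 5.98 CPM in cloned replicate 3, from 30 UMIs in the shallowest library, and at 6.07 to 7.99 CPM in WT. At 80 days it was at 15.6 to 20.5 CPM in WT and 0.914 to 1.86 CPM in the CFTR-/- libraries, all cloned. The 2 heterozygous libraries at that age were at 1.59 and 14.1 CPM. LOC101119869 was at 0.442 to 0.523 CPM in the naturally bred CFTR-/- fetuses at 120 days and at 0.292 to 0.632 CPM in WT at term.

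LOC101103163 was lower in acinar-gated cells, at 0.296, 1.12, 2.29 and 0.522 CPM in cloned replicates 1 to 4 against 9.4, 6.83 and 21.5 CPM in WT (log2 fold change -4.28 ± 0.59, SE; edgeR adjusted p = 0.047). In endocrine-gated cells it stood at 1.24, 2.4 and 1.27 CPM against 30.8, 22.2 and 42.4 CPM (-4.43 ± 0.33; edgeR adjusted p = 0.000395). The acinar call was kept in 10 of 15 alternatives and the endocrine call in all 14. LOC101103163 differed from TDGF1 in the naturally bred CFTR-/- fetuses at 120 days, which held 14.5 to 16.3 CPM over all kept cells, within the 6.16 to 25.4 CPM of WT. The cloned libraries held 0.394 to 2.21 CPM. At 80 days LOC101103163 was at 33.3 to 41.8 CPM in WT and 1.75 to 3.34 CPM in the CFTR-/- libraries, all from cloned fetuses. At term the libraries of naturally bred CFTR-/- lambs held 10.5 to 23.1 CPM. Those of the cloned CFTR-/- lamb held 0.589 and 0.708 CPM, and WT lambs 0.474 to 10.1 CPM. LOC105604543, a long non-coding RNA in the same RefSeq annotation, between TXNL1 and WDR7, was lower in acinar (-2.81 ± 0.34; edgeR adjusted p = 0.0191) and duct cells (-3.55 ± 0.44; edgeR adjusted p = 0.0464), calls that were kept in 10 and 5 of 15 alternatives.

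Among the remaining acinar genes DEFB112, a beta-defensin, had 2 UMIs in the cloned fetuses and 238 in WT, a ratio of 109 for WT over cloned with a 95% counting interval of 29.9 to 906 (edgeR adjusted p = 0.0145). This call for DEFB112 was kept in 11 of 15 alternatives and lost when any 1 of the 4 cloned fetuses was left out (edgeR adjusted p = 0.0529 to 0.183). Over all kept cells DEFB112 overlapped between the groups, at 0 to 0.996 CPM in the cloned libraries and 0.507 to 2.2 CPM in WT. The highest cloned value came from 5 UMIs in cloned replicate 3. In other WT libraries DEFB112 was at 0.08 to 0.198 CPM at 80 days and 0 to 0.295 CPM at term. QRFPR, a receptor for the neuropeptide QRFP, had 0 UMIs in the cloned fetuses and 141 in WT. Over the cloned group as a whole it was at least 53.1-fold lower (edgeR adjusted p = 0.047), a call kept in 6 of 15 alternatives. SPOCK2, a secreted matrix proteoglycan, stood at 0.522, 0.513, 0 and 0.361 CPM against 5.96, 4.71 and 2.76 CPM and fell by 3.29 (log2, SE 0.38; edgeR adjusted p = 0.0156), a call kept in 11 of 15 alternatives. In duct-gated cells SPOCK2 pointed the other way, at 3.64, 3.08, 1.26 and 3.52 CPM against 0.408, 0.455 and 0.608 CPM, but its estimate of 2.59 ± 0.53 did not pass (edgeR adjusted p = 0.317). C17H4orf33 fell by 2.00 on the log2 scale (SE 0.28; edgeR adjusted p = 0.047), a call kept in 8 of 15 alternatives and lost without cloned replicate 1 or 2 or WT replicate 1, among others. The gene that rose was LOC101114941, paired with CFHR3, a complement factor H-related gene, in the study's marker tables. CFHR3 was at 2.44, 2.61, 0.573 and 1.77 CPM in the cloned fetuses and 0.156, 0.0949 and 0.233 CPM in WT (3.66 ± 0.47; edgeR adjusted p = 0.0277), with the call kept in 9 of 15 alternatives.

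Duct-gated cells gave a pair of named genes that rose. UCHL1, a deubiquitinating enzyme best known from neurons and neuroendocrine cells, was at 132, 258, 197 and 41.2 CPM in cloned replicates 1 to 4 and at 4.48, 5.46 and 3.04 CPM in WT replicates 1 to 3. All cloned fetuses lay above all WT fetuses, and the log2 fold change was 5.23 ± 0.65 (SE; edgeR adjusted p = 0.0464). UCHL1 UMIs in duct cells numbered 3032 in the cloned fetuses and 59 in WT. Because UCHL1 also marks endocrine and nerve cells, their markers were read in the same duct-gated cells. Endocrine markers took 0.00822% to 0.0223% of duct-gated UMIs in the cloned fetuses and 0.0205% to 0.0222% in WT. Schwann markers took 0.00886% to 0.0195% and 0.016% to 0.0193%. The Schwann list includes S100B, which the study gives as a duct marker at this age, so its share cannot show how much nerve RNA was present. The part of endocrine or nerve RNA in the UCHL1 values was not tested.

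UBASH3B, a protein tyrosine phosphatase that dampens receptor signalling, was at 34, 17.9, 21.5 and 18.6 CPM in the duct-gated cells of the cloned fetuses and 2.85, 4.55 and 3.28 CPM in WT. The groups did not overlap, and the log2 fold change was 2.75 ± 0.36 (SE; edgeR adjusted p = 0.0464). Both calls were near the threshold: UCHL1 kept its call in 7 and UBASH3B in 5 of 15 alternatives. Neither changed direction in any of them, which groups without overlap made likely in advance.

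Endocrine-gated cells had 4 genes that rose. CD3G, a chain of the T-cell receptor complex, was at 32.8, 33.8 and 37.9 CPM in cloned replicates 1, 2 and 4 and at 5.26, 2.56 and 11.6 CPM in WT (log2 fold change 2.15 ± 0.32, SE; edgeR adjusted p = 0.041). The CD3G call was kept in 10 of 14 alternatives and lost without cloned replicate 2 or 4 or WT replicate 1 or 2 (edgeR adjusted p = 0.0725 to 0.222). Lymphoid markers took 0.000249% to 0.000458% of the endocrine-gated UMIs in the cloned fetuses and 0.000235% to 0.000757% in WT. The part of lymphoid RNA in the CD3G values was not tested. CALCRL, the receptor shared by CGRP and adrenomedullin, was at 15.8, 12.7 and 10.6 CPM against 2.63, 0.853 and 1.65 CPM (2.79 ± 0.34; edgeR adjusted p = 0.0119). GNG11, a G-protein gamma subunit, rose by 2.50 ± 0.37 on the log2 scale (edgeR adjusted p = 0.0346), with the call kept in 10 of 14 alternatives, while that of CALCRL was kept in all 14. CALCRL and GNG11 are also expressed by endothelial cells, whose markers took 0.000349% to 0.00119% of endocrine-gated UMIs in the cloned fetuses and 0.000422% to 0.000803% in WT. LOC101113217 was at 52.1, 46.5 and 55.7 CPM against 7.17, 13.7 and 8.37 CPM (2.54 ± 0.23; edgeR adjusted p = 0.00122), and its call was kept in all 14.

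Of the 6 endocrine genes that fell, ENKUR, a calmodulin-binding protein of cilia and sperm tails, was at 8.77, 8.15 and 6.99 CPM in cloned replicates 1, 2 and 4 and at 24.9, 35 and 23.5 CPM in WT (log2 fold change -1.73 ± 0.22, SE; edgeR adjusted p = 0.0139). APOH, a phospholipid-binding plasma protein, fell by 2.50 on the log2 scale (SE 0.36; edgeR adjusted p = 0.0294). The calls for ENKUR and APOH were each kept in 11 of 14 alternatives, and that of APOH was lost without cloned replicate 2 or 4 or WT replicate 1 (edgeR adjusted p = 0.0725 to 0.191). The others were TDGF1, LOC101119869, LOC101121593 and LOC101103163.

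IFI27L1 was the gene that passed in stromal-gated cells. It is LOC101117112 in the files, paired with IFI27L1 in the study's marker tables, and belongs to a family of interferon-inducible mitochondrial proteins. It was at 169, 721, 367 and 607 CPM in cloned replicates 1 to 4 and at 29.8, 15.7 and 17.8 CPM in WT. All cloned fetuses lay above all WT fetuses, and the log2 fold change was 4.44 ± 0.54 (SE; edgeR adjusted p = 0.00837), with the call kept in 14 of 15 alternatives. Over all kept cells, IFI27L1 overlapped between the groups, at 12.1 to 107 CPM in the cloned libraries and 6.16 to 32.4 CPM in WT.

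In endothelial-gated cells the genes that rose were LOC101120395 and LOC101119773, which stand next to each other in the RefSeq annotation. LOC101120395 was at 53.6, 133, 128 and 78 CPM in cloned replicates 1 to 4 and at 1.14, 2.82 and 0 CPM in WT, 554 against 3 UMIs. The ratio was 105 with a 95% counting interval of 35.9 to 513 (edgeR adjusted p = 0.00181). LOC101119773 was at 25.2, 30.2, 33.4 and 19.1 CPM against 1.14, 0 and 0 CPM, 166 UMIs against 1, a ratio of 94.8 with an interval of 16.8 to 3765 (edgeR adjusted p = 0.00426). The calls for LOC101120395 and LOC101119773 were kept in 15 of 15 alternatives. Whether the pair share sequence, so that reads could pass between them, was not tested.

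**Figure D3:**
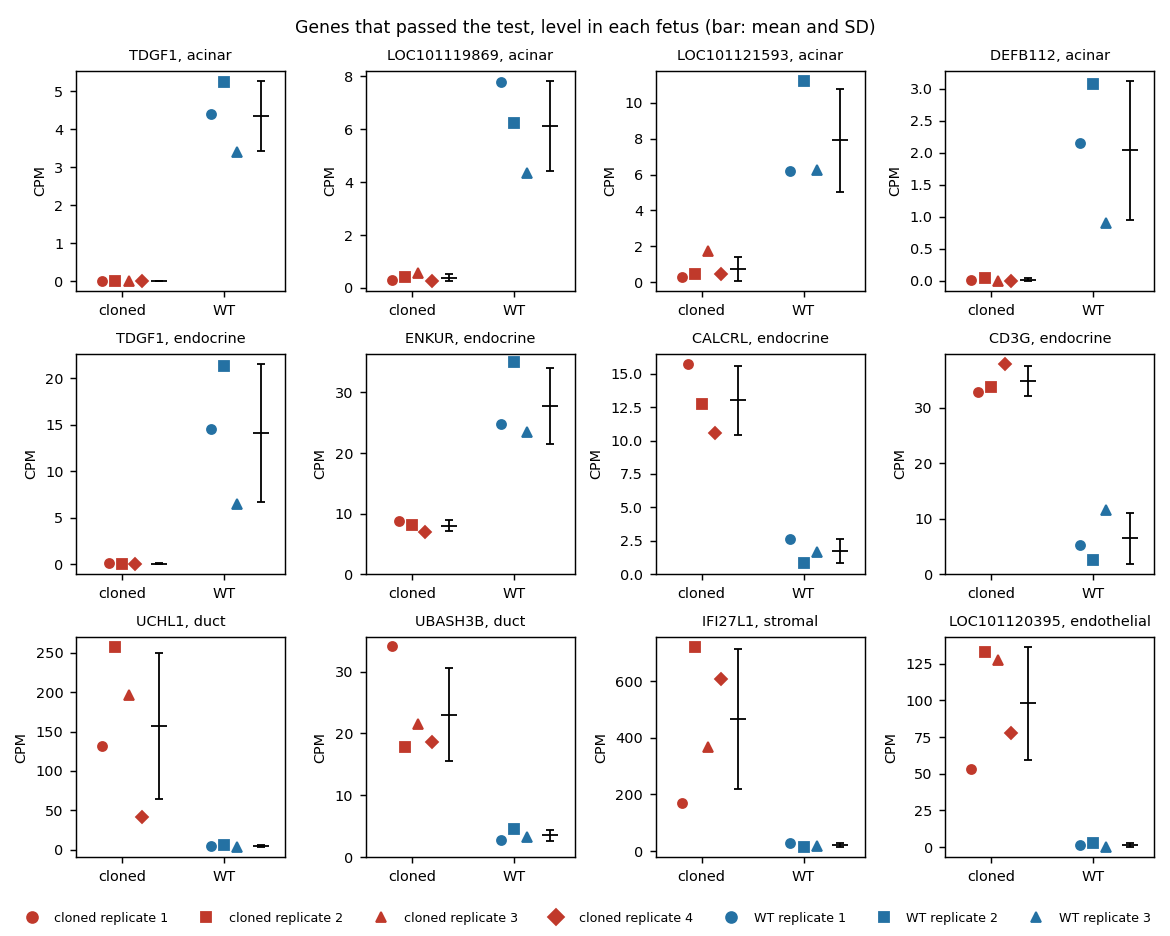
Level (CPM after TMM scaling, linear axes) of 12 gene and lineage pairs that passed edgeR's test at an adjusted p of 0.05, 1 point per fetus, with the mean and SD of each group as a bar. In every panel the cloned and WT fetuses are apart, for example UCHL1 in duct cells at 41.2 to 258 CPM in the cloned and 3.04 to 5.46 CPM in the WT fetuses.

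Pathway lists were next read, each mainly in 1 or a few of the lineages it is about. Beyond IFI27L1, no listed gene passed the test, so the lists are described by counts and medians beside those of all tested genes. For duct-gated cells 4.75% of all tested genes had all cloned above all WT fetuses and 5.24% the reverse. For acinar-gated cells these shares were 5% and 6.23%, for endocrine 7.76% and 6.17%, for stromal 3.21% and 3.75%, for mural 2.88% and 3.48% and for endothelial 5.1% and 5.03%.

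The digestive enzymes and zymogen proteins had mostly negative estimates in acinar-gated cells. Of 22 tested, 2 had an estimate above 0, 4 lay lower in all cloned than in all WT fetuses and none higher, and the median log2 fold change was -0.85. PNLIPRP2, a pancreatic lipase, was at 7744, 3493, 2542 and 8406 CPM in cloned replicates 1 to 4 and at 11975, 13223 and 8412 CPM in WT (-1.01 ± 0.41, SE; edgeR adjusted p = 0.456). The kallikrein KLK1 was at 56.7, 12.3, 28.1 and 69.2 CPM against 187, 196 and 95.8 CPM (-1.92 ± 0.50; edgeR adjusted p = 0.277). The pro-carboxypeptidase CPB1 and the granule protein SYCN were the other members without overlap. Cloned replicates 2 and 3 were the low ones: the whole list took 7.62%, 3.74%, 4.82% and 9.09% of acinar-gated UMIs in cloned replicates 1 to 4 and 9.88%, 11.4% and 6.92% in WT, which overlap. Of these genes, CEL, PNLIPRP2, CLPS, GP2, SYCN and PLA2G1B also helped to define the acinar gate.

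Enzyme RNA ran lower in the other gates too. In duct-gated cells 12 of 20 tested enzyme genes lay lower in all cloned fetuses, with a median of -1.19, and in mural-gated cells 9 of 11, with a median of -1.50. The list took 0.232%, 0.12%, 0.0273% and 0.164% of duct-gated UMIs in the cloned fetuses and 0.306%, 0.405% and 0.275% in WT. In stromal-gated cells its share was 0.195%, 0.0769%, 0.0184% and 0.193% against 0.444%, 0.462% and 0.257%. The groups did not overlap in either lineage. The enzymes are known as products of acinar cells. Whether this RNA came from acinar cells or from the gated cells themselves, and its part in other results, was not tested.

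The unfolded protein response, which protects cells with a heavy secretory load, pointed the same way in acinar-gated cells. Of 21 genes 3 had estimates above 0 and 5 lay lower in all cloned fetuses, HERPUD1, DNAJB9, ATF4, XBP1 and PDIA6, with a list median of -0.36. HERPUD1, a component of endoplasmic reticulum degradation, was at 846, 642, 603 and 413 CPM in the cloned fetuses and 1057, 1376 and 1099.6 CPM in WT (-0.91 ± 0.26, SE; edgeR adjusted p = 0.302). XBP1, the transcription factor that directs the response, was at 406, 340, 321 and 410 CPM against 574, 535 and 466 CPM (-0.51 ± 0.19; edgeR adjusted p = 0.442). Among 81 ribosomal protein genes in acinar-gated cells 21 lay lower and 3 higher, with a median of -0.27. Of 8 acinar transcription factors 4 had an estimate above 0 and XBP1 and LOC106990174 lay lower in all cloned fetuses.

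No inflammatory gene passed the test in duct-gated cells. Of 17 tested, 16 had an estimate above 0 and 4 lay higher in all cloned fetuses, with a median of 1.53 and none lower. CXCL8, the neutrophil-attracting chemokine, was at 163, 437, 413 and 107 CPM in cloned replicates 1 to 4 and 11.8, 10 and 84.8 CPM in WT (2.94 ± 0.83, SE; edgeR adjusted p = 0.549). ICAM1, a leukocyte adhesion receptor, was at 23.1, 43.5, 89.7 and 31.9 CPM against 4.28, 3.18 and 15.8 CPM (2.41 ± 0.61; edgeR adjusted p = 0.472). NFKB1, a subunit of the transcription factor NF-kappaB, was at 225, 185, 380 and 162 CPM against 71.9, 77.7 and 133 CPM, and IL6, a cytokine, at 1.24, 6.17, 2.53 and 4.54 CPM against 0.204, 0 and 0.486 CPM. WT replicate 3 was the highest WT fetus for all 4 of these genes. Immediate early and heat shock genes, which respond to handling and stress, stood on the same side in these duct-gated cells. They had 22 of 26 estimates above 0 and a median of 0.40, with none apart between the groups. Their part in the inflammatory values was not tested. CXCL6, CCL20 and C3 had larger estimates but were near 0 in cloned replicate 4 and overlapped with WT. The list was not raised in duct cells alone. In acinar cells 13 of 16 estimates were above 0, with a median of 0.49, 4 higher and 1 lower in all cloned fetuses. Endocrine cells had 7 of 8, with a median of 0.48 and 2 higher. Stromal, mural and endothelial cells had 9 of 13, 4 of 7 and 8 of 14.

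The TGF-beta pathway, which drives matrix deposition, was read in duct, stromal and mural cells. In duct-gated cells 20 of 21 genes had an estimate above 0, with a median of 0.75, and 3 lay higher and 1 lower in all cloned fetuses. SMAD3, which carries the signal to the nucleus, was at 207, 99.6, 409 and 113 CPM in the cloned fetuses and 83.5, 65.9 and 76.2 CPM in WT (1.45 ± 0.48, SE; edgeR adjusted p = 0.596). TGFBR3, a co-receptor, was another of the 3, and LTBP1, which stores the latent ligand, was the lower one. In stromal-gated cells 17 of 20 had an estimate above 0 with a median of 0.44. Of these TGFB3, a ligand, was at 50.2, 95, 115 and 152 CPM against 43, 44.7 and 32.7 CPM (1.23 ± 0.39; edgeR adjusted p = 0.748). In mural-gated cells 8 of 15 had an estimate above 0, with a median of 0.01 and 1 higher in all cloned fetuses.

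Genes of the duct cell's own work were mixed. Of 12 bicarbonate and chloride transport genes 5 had an estimate above 0 and the median was -0.07. SCTR, the receptor for secretin, which triggers ductal secretion, was at 155, 254, 549 and 158 CPM in the cloned fetuses and 106, 95.9 and 136 CPM in WT (1.30 ± 0.47, SE; edgeR adjusted p = 0.63). The potassium channel KCNQ1 was at 83.1, 56.7, 56.8 and 83.1 CPM against 100.05, 143 and 83.2 CPM, apart by a small margin. Among 29 duct epithelium and mucin genes 17 had an estimate above 0, with 1 higher and 1 lower in all cloned fetuses, or 3.45% each, against 4.75% and 5.24% of all genes. The higher one was MMP7, a matrix metalloproteinase of ductal epithelium, at 1069.7, 1609, 1022 and 947 CPM against 182, 394 and 680 CPM (1.47 ± 0.47; edgeR adjusted p = 0.579). The lower one was AGT, the angiotensinogen gene, at 1064, 358, 92.2 and 1032 CPM against 1832, 1330 and 1710 CPM (-1.35 ± 0.67; edgeR adjusted p = 0.685). KRT19, a duct keratin, overlapped (-0.14 ± 0.44; edgeR adjusted p = 0.966). YAP target genes had 15 of 18 estimates above 0 and a median of 0.73, with no member apart between the groups. Stromal cells had 13 of 17 and 0.59, and mural cells 5 of 12 and -0.05. Acinar cells went further, with 17 of 18, a median of 1.20 and 3 higher in all cloned fetuses. Endocrine cells had 9 of 13, a median of 0.215 and 4 higher, and endothelial cells 10 of 12 and 0.20. Nuclear genes of respiratory complex I had mostly negative estimates in every lineage fitted. In duct-gated cells none of 36 was above 0, with a median of -0.50 and 8 lower in all cloned fetuses. Estimates above 0 numbered 1 of 36 in endothelial, 2 of 34 in stromal, 4 of 37 in acinar, 4 of 36 in mural and 6 of 36 in endocrine cells, with medians of -0.36, -0.31, -0.22, -0.21 and -0.16. The transcripts of the mitochondrial genome, a sign of RNA quality, had 11 of 13 estimates above 0 in duct cells, with a median of 0.37 and 2 higher in all cloned fetuses, and 13 of 13 above 0 in stromal cells, with a median of 0.34. In endothelial and mural cells 9 of 13 were above 0 and in acinar and endocrine cells 2 of 13, and their part in the complex I values was not tested.

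No hormone gene passed the test in endocrine-gated cells, and the values of the main ones are given here. PPY, the gene of pancreatic polypeptide, was at 41618, 30095 and 118660 CPM in cloned replicates 1, 2 and 4 and at 1117, 22430 and 5858 CPM in WT replicates 1 to 3. The groups did not overlap but the WT spread was wide, and the log2 fold change of 2.70 ± 0.84 (SE) did not pass (edgeR adjusted p = 0.31). GCG, which encodes glucagon, was at 42034, 30612 and 75566 CPM against 87763, 98312 and 57882 CPM (-0.72 ± 0.32; edgeR adjusted p = 0.557), and SST, which encodes somatostatin, overlapped (-0.02 ± 0.28; edgeR adjusted p = 0.996).

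Endocrine-gated cells were also counted by the hormone gene with the most UMIs in each cell, a count added after the PPY values were seen and not tested. With any UMI enough, PPY led in 26.1%, 34.1% and 34% of the endocrine-gated cells of cloned replicates 1, 2 and 4 and in 0.743%, 9.52% and 4.02% of those of WT replicates 1 to 3. The same count gave 18.8% to 47.3% in the acinar, duct, stromal, mural and endothelial gates of these cloned fetuses and 0% to 9.81% in those of WT, so these shares were at the level of hormone RNA found in cells of every kind. With at least 100 UMIs of the leading hormone required, PPY led in no more than 0.611% of the cells of any other gate. Among endocrine-gated cells it then led in 176 of 1090, 121 of 478 and 120 of 415 cells of the cloned fetuses, or 16.1%, 25.3% and 28.9%, and in 1 of 269, 9 of 105 and 26 of 771 cells of WT, or 0.372%, 8.57% and 3.37%. The groups did not overlap for PPY with this minimum. GCG led in 44.4%, 44.4% and 53.3% against 50.6%, 60% and 62.3%, and the groups overlapped. None of these hormone genes helped to define the endocrine gate, and insulin cells could not be marked. The minimum was chosen after the values were seen.

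**Figure D4:**
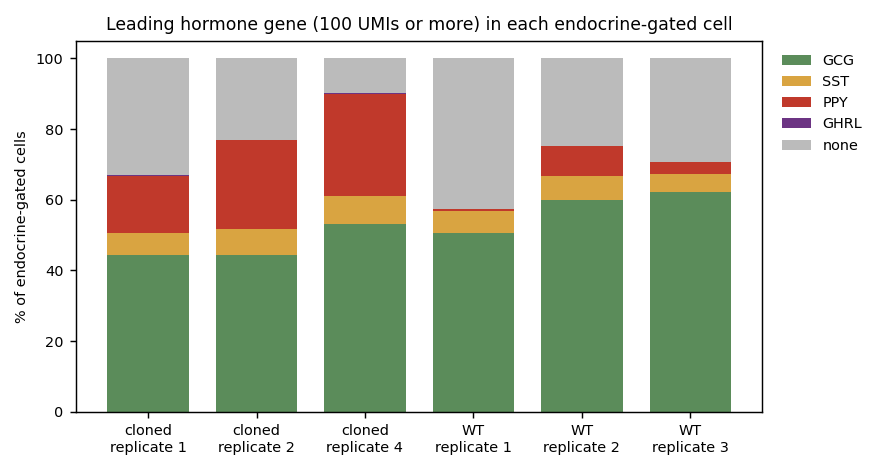
Share of endocrine-gated cells (%, stacked bars from 0 to 100) by the hormone gene with the most UMIs in the cell, in the 3 cloned and 3 WT fetuses that had such cells (none, fewer than 100 UMIs of each of GCG, SST, PPY and GHRL). PPY leads in 16.1% to 28.9% of cells in the cloned fetuses and in 0.372% to 8.57% in WT.

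Of 27 endocrine hormone and factor genes tested 9 had an estimate above 0. In all cloned fetuses 2 lay higher, or 7.41%, near the 7.76% of all tested genes. The 4 that lay lower were 14.8%, against 6.17% of all tested genes. GHRL, the ghrelin gene, had the largest estimate, 4.17 ± 1.02 (SE), but the groups overlapped (edgeR adjusted p = 0.221). NKX2-2, an islet transcription factor, lay higher in all cloned fetuses with PPY, at 2.33, 2.64 and 3.18 CPM against 1.67, 1.71 and 0.62 CPM. G6PC2, an islet glucose-6-phosphatase, was at 16.4, 5.51 and 7.41 CPM against 44.5, 22.2 and 18.8 CPM (-1.46 ± 0.41, SE; edgeR adjusted p = 0.27). SLC30A8, the zinc transporter of secretory granules, and INSM1, an endocrine transcription factor, also lay lower in all cloned fetuses. Immediate early and heat shock genes had 25 of 26 estimates above 0 in endocrine-gated cells, with a median of 0.90. Only 2 of the 26 lay higher in all cloned fetuses, or 7.69%, near the 7.76% of all tested genes. Of these HSPA1A, a heat shock chaperone, was at 417, 492 and 221 CPM against 139, 176 and 178 CPM (1.20 ± 0.27; edgeR adjusted p = 0.147).

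In stromal-gated cells 23 of 30 collagen and matrix genes had an estimate above 0, with a median of 0.27, 6 higher and 1 lower in all cloned fetuses. Positive estimates were not particular to stromal cells. They numbered 23 of 25 in acinar, 13 of 19 in duct and 13 of 16 in endocrine cells, with medians of 1.27, 0.44 and 0.46. In endothelial cells they numbered 6 of 17, with a median of -0.17. Members higher in all cloned fetuses numbered 1 in acinar, 0 in duct and 2 each in endocrine and endothelial cells. In acinar-gated cells 5 of 5 tested stromal markers also had estimates above 0, with a median of 1.19. These markers took 0.00276% of acinar-gated UMIs in cloned replicate 1 and 0.000234% to 0.000771% in the other fetuses. The part of stromal RNA in the acinar values was not tested. In mural-gated cells 10 of 26 collagen and matrix genes were above 0, with a median of -0.16 and none apart. LOXL1, which cross-links elastin and collagen, was at 192, 141, 216 and 187 CPM in the cloned fetuses and 81.1, 107 and 95.8 CPM in WT (0.96 ± 0.29, SE; edgeR adjusted p = 0.671). THBS2, COL18A1, BGN, TIMP3 and COL6A3 were the other matrix genes higher in all cloned fetuses, and COL5A3 was lower. The main fibrillar collagens overlapped: COL1A1 was at 11584, 10838, 6544 and 14264 CPM against 6980, 10716 and 7250 CPM (0.38 ± 0.43; edgeR adjusted p = 0.928). In mural-gated cells 10 of 22 contractile and mural genes had an estimate above 0, with a median of -0.12. ACTA2, smooth muscle actin and one of the gate's markers, was at 7240.1, 6069, 2092 and 2972 CPM against 6638, 9141 and 5498 CPM (-0.63 ± 0.41; edgeR adjusted p = 0.883).

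No cell division gene passed the test in endothelial-gated cells. None of the 23 tested had an estimate above 0, the median was -1.58, and 6 lay lower in all cloned than in all WT fetuses, HMMR, NUSAP1, CENPE, CENPA, CDC20 and MCM3. HMMR, a mitotic spindle protein, was at 12.6, 6.03, 8.02 and 5.2 CPM in cloned replicates 1 to 4 and at 16, 60.5 and 39.3 CPM in WT (-2.12 ± 0.45, SE; edgeR adjusted p = 0.244). MKI67, a marker of cycling cells, was at 19.8, 13.6, 22.8 and 13.9 CPM against 7.98, 213 and 60.8 CPM, so WT replicate 1 lay below the cloned fetuses. The dividing-cell markers took 0.0127% to 0.0317% of the UMIs of these cells in the cloned fetuses and 0.0236%, 0.191% and 0.0672% in WT, so the groups overlapped and WT replicate 2 was the highest. The 65 endothelial-gated cells of that fetus also held the most stromal marker RNA, at 0.0867% of UMIs against 0.00192% to 0.0155% in the other fetuses, and its part in the division values was not tested. Cells over the dividing cut were 6 of 304, 2 of 122, 8 of 429 and 1 of 91 endothelial-gated cells in the cloned fetuses and 2 of 112, 6 of 65 and 11 of 189 in WT. The list's medians in acinar, duct, endocrine and stromal cells were 0.17, -0.02, 0.18 and 0.05, and in mural cells -0.45.

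The interferon response in endothelial-gated cells had 19 of 25 estimates above 0, with a median of 0.33. OAS2, an antiviral enzyme, was at 21.6, 34.7, 31.3 and 19.1 CPM in the cloned fetuses and 3.42, 4.22 and 8.89 CPM in WT (2.16 ± 0.43, SE; edgeR adjusted p = 0.244). The RNA sensors DDX58 and IFIH1 also lay higher in all cloned fetuses, while the transcription factor IRF1 lay lower, at 44.1, 34.7, 29.6 and 26 CPM against 59.3, 66.2 and 51.9 CPM. In stromal-gated cells OAS1 lay higher in all cloned fetuses besides IFI27L1, 2 of 10 tested. Imprinted genes, whose marks can be disturbed by nuclear transfer, had medians between -0.07 and 0.11 in the 6 lineages. In endocrine-gated cells 3 of 22 lay lower in all cloned fetuses, PEG10, GNAS and DIRAS3, with PEG10 at 463, 211 and 329 CPM against 604, 609 and 652 CPM (-0.89 ± 0.25; edgeR adjusted p = 0.273).

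**Figure D5:**
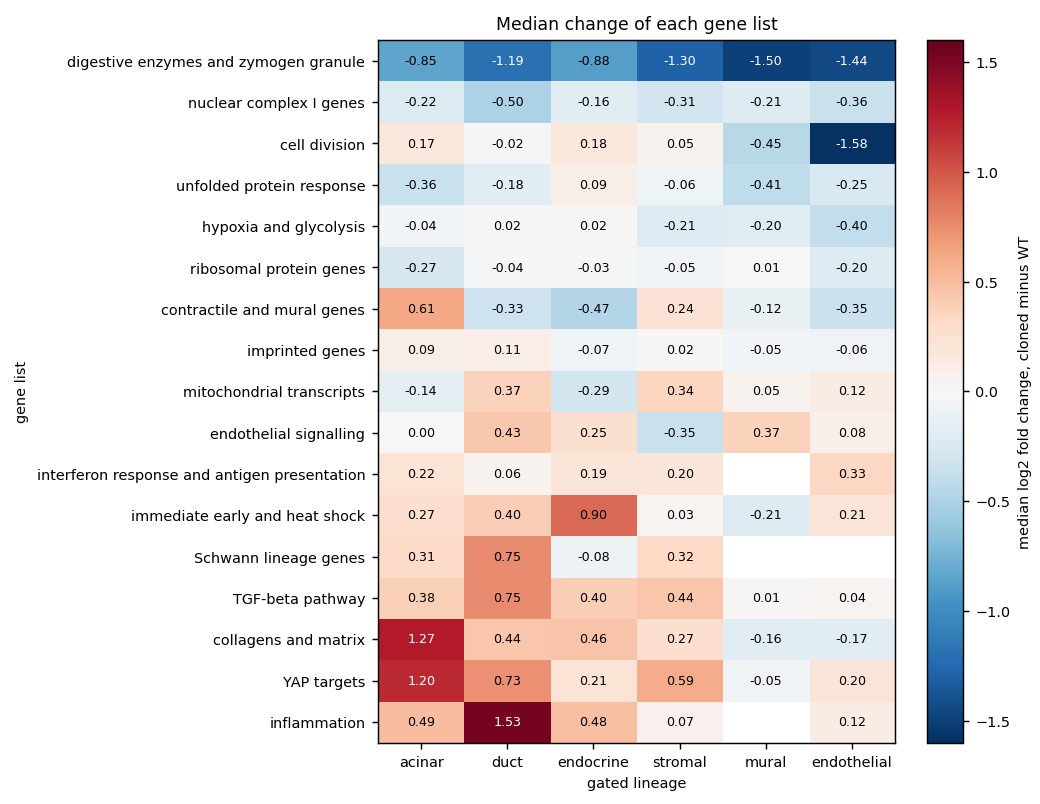
Median log2 fold change (cloned minus WT; red above 0, blue below) of each gene list with at least 8 tested genes, by gated lineage, with empty cells where fewer were tested. Digestive enzymes are negative in all 6 lineages (-0.85 to -1.50), cell division is at -1.58 in endothelial cells, and inflammation at 1.53 in duct cells.

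Schwann-gated cells were too few in WT to fit, with 16, 2 and 27 cells against 101, 73, 68 and 19 in cloned replicates 1 to 4, so their levels carry no test. CDH19, a glial cadherin, was present in each fetus, at 582 to 880 CPM in the cloned fetuses and 463 to 776 CPM in WT. SOX10, the transcription factor that defines the lineage, was at 37.3 to 83.6 CPM in the cloned fetuses, and at 35, 0 and 17.1 CPM in WT, where 2 cells gave the value of 0. APOD, an apolipoprotein of nerve and stroma, was at 704, 916, 725 and 1183 CPM in the cloned fetuses and 2499, 665 and 986 CPM in WT. FOXD3, a neural crest transcription factor, was at 156 to 311 CPM and 222 to 315 CPM. The groups overlapped for CDH19, APOD and FOXD3, and no comparison was made for SOX10. All of these but APOD helped to define the gate.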

How the data were processed

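Fetal pancreas was dissociated and sequenced as droplet 3′ single-cell libraries. Reads were counted by the authors with Cell Ranger 3.1.0 on sheep build Oar_v4.0, and the deposited values are UMI counts per gene and barcode, not normalized, as separate matrices for each library. Here barcodes were filtered as in the study, gated by marker scores (minimum 0.2, margin 0.1) and summed per fetus and lineage, with fetuses of at least 20 cells in the lineage. Sums were tested with edgeR 4.0.16 (quasi-likelihood, TMM, filter on low counts, Benjamini-Hochberg), with DESeq2 1.42.0 as an alternative, and shares with exact two-sided permutation tests over fetuses (scipy 1.17.1), adjusted over 12 classes. Clusters were made with igraph 0.11.9 at Leiden resolution 1.5, and doublet scores with Scrublet in scanpy 1.11.5. Scrublet's automatic threshold marked 2 to 72 cells per library, and no doublet was removed except in the alternative without the top scores. On simulated counts in which 200 genes were changed by a log2 fold of 2, the edgeR step recovered 98% in acinar, 95% in duct, 99% in endocrine, 90% in stromal, 89% in mural and 91.5% in endothelial cells, and 1.61% to 6.32% of its calls were of genes left unchanged. The changed genes were drawn without the lowest-expressed ones, and the simulated spread followed the trend with level rather than each gene's own. Larger estimates in the data did not always pass. These shares are therefore not the power for low genes or for genes whose level varies more between fetuses.

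The members, gene lists and tests were chosen with earlier results of these data known. Chosen after the cells were seen were the gate cut-offs, the cluster resolution, the counts of non-overlapping groups, the leading-hormone counts and their minimum, the levels over whole libraries and the division counts by lineage. The naming rule took, in each lineage, up to 6 higher and 6 lower genes past an adjusted p of 0.05 with groups apart, a mean of at least 20 CPM in the higher group and a symbol, the genes called alike in most lineages, CFTR, and list members. It named UCHL1, UBASH3B, CD3G, ENKUR and IFI27L1, and the other genes that passed were named after their values were seen. Cloning status came from the study's sample table and not from the library titles. The library of cloned replicate 4 is named as merged, which is not explained in the sources used here. Intervals and floors cover counting error only. Names of loci came from the files, from the study's marker tables or from RefSeq for ARS-UI_Ramb_v3.0, another build, used for names and neighbours only. Myeloid, lymphoid, erythroid and Schwann cells were not fitted.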

Additional observations from a re-analysis of the deposited data

Results flagged for a closer look

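Among the 4 cloned fetuses a single one lay far from the others, by Dixon's test at the 95% level, for 4 measures, and each time it was cloned replicate 3, the shallowest library. Its share of mural-gated cells was 20.6%, against 1.55% to 3.82% in the other cloned fetuses. Its share of endothelial-gated cells was 45.5%, against 3.45% to 6.05%. Its share of mesothelial-gated cells was 0.212%, from 2 cells, against 0% in the others, where any count above 0 would have stood apart in the same way. The level of LOC101121593 in its acinar-gated cells was 1.72 CPM, against 0.285 to 0.467 CPM, from 40 cells. Chance flags about 1 in 20 groups tested in this way, and the 4 flags were not set against the number of groups screened. Shares of a fetus sum to a whole, so the mural and endothelial flags are not independent.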

How the results depend on the processing

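Numbers of genes past the threshold depended on the settings more than their directions did. No gene that passed changed direction in any alternative. This was largely fixed in advance, because the groups did not overlap for any of them and the alternatives reuse the same fetuses. DESeq2 called 144 acinar, 75 duct, 96 endocrine, 5 stromal and 23 endothelial genes. With no filter on low counts edgeR called 17 duct, 262 endocrine, 24 stromal, 42 mural and 171 endothelial genes. With the replicate number as a block it called 104 acinar, 27 duct, 587 endocrine, 6 stromal, 1 mural and 7 endothelial genes. The numbers do not pair the fetuses: same-numbered fetuses correlated in their deviations at -0.186 to 0.0305 outside endocrine cells and at 0.106 and 0.145 for the 2 endocrine pairs, so they share a number only. The duct count was 0 with unsupervised clusters and 0 with library 1A of cloned replicate 1 alone. The settings not mentioned here (stricter gate, top doublet scores removed, library 1B alone) left each count within 1.5 times its value. Leaving out 1 fetus gave 2 to 159 genes in acinar, 0 to 2 in duct, 5 to 62 in endocrine, 0 to 3 in stromal, 0 to 2 in mural and 2 to 7 in endothelial cells. Some differences in share changed sign, those of myeloid, duct, endocrine and stromal cells. The myeloid difference, cloned minus WT, was -0.669 percentage points with unsupervised clusters and ran from -0.0687 to 0.382 over the leave-one-out settings. The corresponding ranges were -2.46 to 8.42 for duct, -1.09 to 6.81 for endocrine and -2.24 to 0.487 for stromal cells. The cause of these shifts was not tested. The acinar and Schwann shares kept their direction in all 13 alternatives, the acinar difference at -33.9 to -17.3 percentage points without 1 fetus. Depth was not varied in any setting. Lineages with few cells per fetus were not fitted.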
